A study of Mus musculus with 9 samples.

Results

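The cholesterol genes examined here were Hmgcs1, Insig1, Sqle, Idi1, Fdft1, Lss, Dhcr7 and Srebf2, 8 named genes among the 24318 in each deposited table. Their rows were taken from the tables by symbol. Of these, 6 encode enzymes of cholesterol synthesis (Hmgcs1, Idi1, Fdft1, Sqle, Lss and Dhcr7), while Srebf2 and Insig1 encode regulators of the pathway. None of them takes up cholesterol itself, so uptake genes are given further on from a separate list. RNA-seq was performed on N2a cells, a mouse neuroblastoma line, in 3 conditions with 3 libraries each. Scramble control cells received a non-targeting siRNA and carry the genotype label WT, and the other cells were siRNA-depleted of EXOSC3 (siEXOSC3), a cap subunit of the RNA exosome, or of the putative RNA helicase DDX1 (siDDX1). All 9 libraries are labelled Untreated, all cells went through Lipofectamine transfection, and the medium held fetal bovine serum, which supplies cholesterol. Libraries came from biological replicates seeded on separate plates. The study used pools of cells of 1 line, and which EXOSC3 siRNA and what time after transfection the libraries represent are not given in the sources used here.

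Cholesterol is built from acetyl-CoA through mevalonate, the isoprenoid units, squalene and lanosterol. When membranes of the endoplasmic reticulum are low in sterol, the transcription factor SREBP2 (the product of Srebf2) is escorted to the Golgi, cleaved and released to the nucleus, where it binds sterol response elements and raises the transcription of most enzymes of the pathway. INSIG1 holds the precursor back when sterol is plentiful and is itself encoded by an SREBP target. The brain makes most of its cholesterol locally, and neurons also take it up from lipoproteins that glia release.

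RefSeq promoter sequences (250 bases before to 50 bases after the start, GRCm38.p6) were matched for 6 of the 8 genes, with 3 alternative starts for Dhcr7. Sqle and Fdft1 had no entry. The promoters below are those of Srebf2, the only one of the 8 genes called in both knockdowns, of Dhcr7 at its first start, the gene with the largest change in siEXOSC3 cells, and of Insig1, whose values varied most between siDDX1 libraries. Capitals mark CCAAT (bound by NF-Y, an SREBP partner, and read as ATTGG on the other strand), the E-box CACGTG, and TCACNCCA, a short sterol response element core. Both strands were searched. Every match to the longer core TCACNCCAC also matches TCACNCCA, and the shorter core was added after the promoters had been seen.
Srebf2 promoter, chr15:82147019-82147318, strand +: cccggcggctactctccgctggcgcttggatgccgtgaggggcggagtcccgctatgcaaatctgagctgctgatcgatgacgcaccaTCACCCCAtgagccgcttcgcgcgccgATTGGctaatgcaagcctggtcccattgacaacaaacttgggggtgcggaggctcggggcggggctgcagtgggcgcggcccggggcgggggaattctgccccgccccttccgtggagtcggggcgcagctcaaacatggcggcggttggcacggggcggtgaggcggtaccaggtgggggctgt
Dhcr7 promoter, chr7:143822917-143823216, strand +: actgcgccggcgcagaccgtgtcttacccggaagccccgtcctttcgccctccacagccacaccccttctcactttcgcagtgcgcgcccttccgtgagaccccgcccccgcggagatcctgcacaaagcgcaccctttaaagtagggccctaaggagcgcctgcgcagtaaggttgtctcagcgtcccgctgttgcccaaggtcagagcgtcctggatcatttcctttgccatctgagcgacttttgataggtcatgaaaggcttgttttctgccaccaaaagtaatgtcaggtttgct
Insig1 promoter, chr5:28071162-28071461, strand +: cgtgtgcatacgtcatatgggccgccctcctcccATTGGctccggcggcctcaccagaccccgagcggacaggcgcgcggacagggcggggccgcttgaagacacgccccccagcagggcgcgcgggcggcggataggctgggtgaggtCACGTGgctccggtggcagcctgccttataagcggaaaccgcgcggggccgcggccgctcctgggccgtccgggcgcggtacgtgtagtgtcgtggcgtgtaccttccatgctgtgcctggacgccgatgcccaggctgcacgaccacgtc
The longer core TCACNCCAC was present in 1.24% of the 32851 promoters of the table, TCACNCCA in 4.36%, CCAAT in 37.4% and CACGTG in 7.15%. Srebf2 held the shorter core with its first base at -162 from the start and CCAAT at -135. Insig1 held CCAAT at -216 and the E-box at -101. The first Dhcr7 promoter held none of these letters, whereas 1 of its other promoters held the E-box once and 1 had CCAAT at 2 places. Idi1 had 2 copies of CCAAT and Lss had 1. Hmgcs1 was the only one of the matched genes with the longer core, at -137, and it also had 4 copies of CCAAT. Its window is shown because the gene was listed at 0 in every library:
Hmgcs1 sterol response element core, chr13:119690204-119690232, strand +: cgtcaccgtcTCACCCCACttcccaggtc
A match of letters describes the sequence and does not show that a factor binds there.

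Expression was deposited as FPKM (fragments scaled by transcript length and library size) in 2 tables, and each table pairs 1 knockdown with scramble, at 3 libraries each. Every comparison was made within a table. The same scramble libraries stand in both tables, so the 2 comparisons share their controls. Fold changes are differences of log2(FPKM + 1) between knockdown and scramble, tested with limma over all genes with a mean of at least 1 FPKM and adjusted by Benjamini-Hochberg, and a gene is called at an adjusted p under 0.05. An exact permutation test of 3 libraries against 3 has p = 0.1 as its smallest value, and in bulk RNA fewer cells of a type and less RNA per cell cannot be told apart. Reads were not counted in these tables and the absolute depth is unknown. A rough estimate from the smallest values put the depth relative to scramble replicate 1 between 0.83 and 1.20 over the other libraries. Exosc3 lay at 15.5% ± 1.90 of scramble (SD, n = 3) in siEXOSC3 cells, and Ddx1 at 24.4% ± 2.99 in siDDX1 cells. In siDDX1 replicates 1, 2 and 3, Ddx1 was measured at 28.0, 28.7 and 34.8 FPKM. Across genes, siDDX1 replicate 3 correlated with replicates 1 and 2 at r = 0.986 and 0.990, against 0.994 between those 2, and it stood apart for several of the cholesterol genes. The lowest such correlation was that of siEXOSC3 replicates 2 and 3 (r = 0.983). Leaving out siEXOSC3 replicate 2 raised the genes called in that table from 3644 to 4887, and leaving out siDDX1 replicate 3 raised those in the other from 1182 to 3524. The 9 neuroblastoma markers were all measured, whereas no fibroblast or macrophage marker reached the filter, and Col1a2 and Lum were listed at 0. In siEXOSC3 cells, 6 of the 9 neuroblastoma markers (among them Tubb3, Chga and Chgb) increased, and their summed level was 936 to 1024 FPKM against 548 to 582 in scramble. In siDDX1 cells 1 of 9 increased (Chgb), 0 decreased and 7 had a negative log2 fold change, with a median of -0.062 and sums of 548 to 592 against 544 to 575 FPKM. Over all tested genes, 16.7% were called as increased and 15.7% as decreased in siEXOSC3 cells. These shares were 5.61% and 5.03% in siDDX1 cells. Gata3 (59.7% of scramble) and Chga (86.5%) had all siDDX1 libraries below all scramble libraries without being called. Lying wholly below scramble held for 17.8% of all tested genes in the siDDX1 table. The part of these marker differences in the cholesterol gene values was not tested.

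Hmgcs1, which encodes the cytosolic HMG-CoA synthase at the entry to the mevalonate pathway, was listed at 0 in all 9 libraries of both tables. In all, 6930 genes were listed at 0 throughout. The other 7 genes had values above 0 in every library and passed the filter in both tables. In the NCBIM37 mouse sequence (the sequence of mm9, to which the authors aligned), the RefSeq promoter of Hmgcs1 was found without a mismatch at 2 places, both on unplaced contigs, and at 0 places on a chromosome. The promoters of the other 5 matched genes were each found at 1 place, on a chromosome, with 3 such places for the 3 starts of Dhcr7. The part of this placement in the zeros was not tested, and no change is given for Hmgcs1.

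In EXOSC3-depleted cells, 5 of the 7 measured genes increased (Srebf2, Fdft1, Sqle, Lss and Dhcr7) and 0 decreased. Over all 11242 genes tested in this table, 16.7% were called as increased and 15.7% as decreased. The median log2 fold change of the 7 genes was 0.33 (range 0.22 to 0.81), beside -0.014 over all genes tested. For 6 of the 7, every siEXOSC3 library lay above every scramble library, a pattern held by 23.8% of all tested genes, with 25.9% wholly below. Each siEXOSC3 library alone had all 7 genes above the scramble mean, with median log2 differences of 0.37, 0.27 and 0.43 in replicates 1, 2 and 3.

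**Figure D1:**
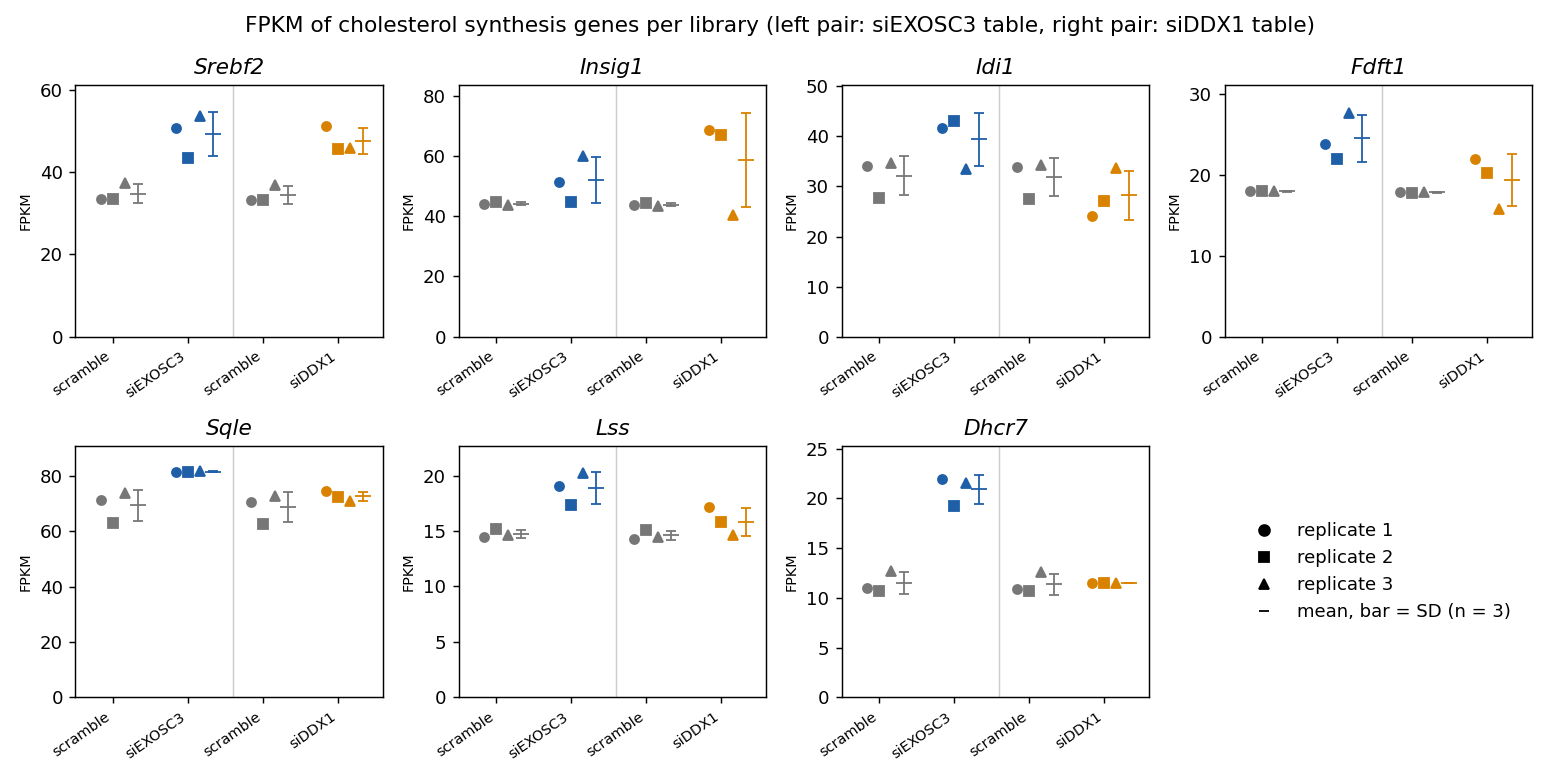
FPKM (vertical axes, from 0) of the 7 measured genes in each library. In each panel the left pair of groups is the siEXOSC3 table and the right pair the siDDX1 table, symbols mark replicates 1 to 3, and the horizontal mark with its bar is the mean ± SD (n = 3). Dhcr7 was at 19.2 to 22.0 FPKM in siEXOSC3 cells against 10.7 to 12.7 in scramble, and Srebf2 was above scramble in both knockdowns.

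Among the regulators, Srebf2 encodes the SREBP2 precursor. It was measured at 50.7, 43.4 and 53.6 FPKM in siEXOSC3 replicates 1, 2 and 3 and at 33.4, 33.6 and 37.3 FPKM in scramble. The lowest depleted library lay above the highest scramble library, and the mean was 142% ± 15.2 of scramble (SD, n = 3). This increase had a log2 fold change of 0.49 (SE 0.0904, limma adjusted p = 0.00659) and was called in all 6 fits that left out 1 library, with adjusted p between 0.000904 and 0.0357. Insig1, which encodes the protein that retains the SREBP precursor, was measured at 51.3, 44.7 and 60.0 FPKM against 44.2, 44.6 and 43.9 FPKM. Replicate 2 was at 101% of the scramble mean, while replicates 1 and 3 were at 116% and 136%. The log2 fold change of 0.22 (95% confidence interval -0.01 to 0.45) did not pass the test, with a limma adjusted p of 0.123. Without siEXOSC3 replicate 2 it was called, with a log2 fold change of 0.32 and an adjusted p of 0.0115.

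The enzymes are given in the order of the pathway. Idi1, the isomerase that balances both isoprenoid building blocks, was at 41.7, 43.1 and 33.4 FPKM in siEXOSC3 cells and at 34.1, 27.6 and 34.8 FPKM in scramble. The groups overlapped through siEXOSC3 replicate 3, and the log2 fold change of 0.28 (95% confidence interval 0.01 to 0.56) was not called (limma adjusted p = 0.0994). Without siEXOSC3 replicate 3 it was 0.39 with an adjusted p of 0.0181. Fdft1, squalene synthase and the first step committed to sterols, was at 23.8, 22.0 and 27.7 FPKM against 18.0, 18.0 and 18.1 FPKM. All 3 depleted libraries were higher, at 136% ± 16.2 of scramble on average, with a log2 fold change of 0.42 (SE 0.0876, limma adjusted p = 0.00993) that was called in every fit with 1 library left out.

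Sqle encodes squalene epoxidase, a rate-limiting enzyme of the later pathway. It was at 81.5, 81.3 and 81.7 FPKM in siEXOSC3 cells and at 71.2, 63.2 and 73.7 FPKM in scramble. The groups did not overlap, but the increase was small, at 118% ± 0.283 of scramble, with a log2 fold change of 0.23 (SE 0.0717, limma adjusted p = 0.0383). The call was lost without siEXOSC3 replicate 1 (adjusted p = 0.106) and without scramble replicate 1, 2 or 3 (0.0937, 0.131 and 0.0523). Lss, which cyclizes squalene epoxide to lanosterol, was at 19.0, 17.3 and 20.2 FPKM against 14.4, 15.2 and 14.6 FPKM. It increased to 128% ± 9.87 of scramble, with a log2 fold change of 0.33 (SE 0.0752, limma adjusted p = 0.0129). Without siEXOSC3 replicate 1 the adjusted p was 0.0518 and without scramble replicate 1 it was 0.0611.

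Dhcr7, the reductase that turns 7-dehydrocholesterol into cholesterol, showed the largest difference of the 7 genes. It was measured at 22.0, 19.2 and 21.6 FPKM in siEXOSC3 cells and at 11.0, 10.7 and 12.7 FPKM in scramble. All depleted libraries lay well above all scramble libraries, at 182% ± 12.9 of scramble (SD, n = 3). The log2 fold change was 0.81 (95% confidence interval 0.61 to 1.01, SE 0.0875, limma adjusted p = 0.000997), and 97.5% of the genes tested had a smaller log2 fold change. It was called in all 6 fits with 1 library left out, with adjusted p between 0.000381 and 0.00867.

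**Figure D2:**
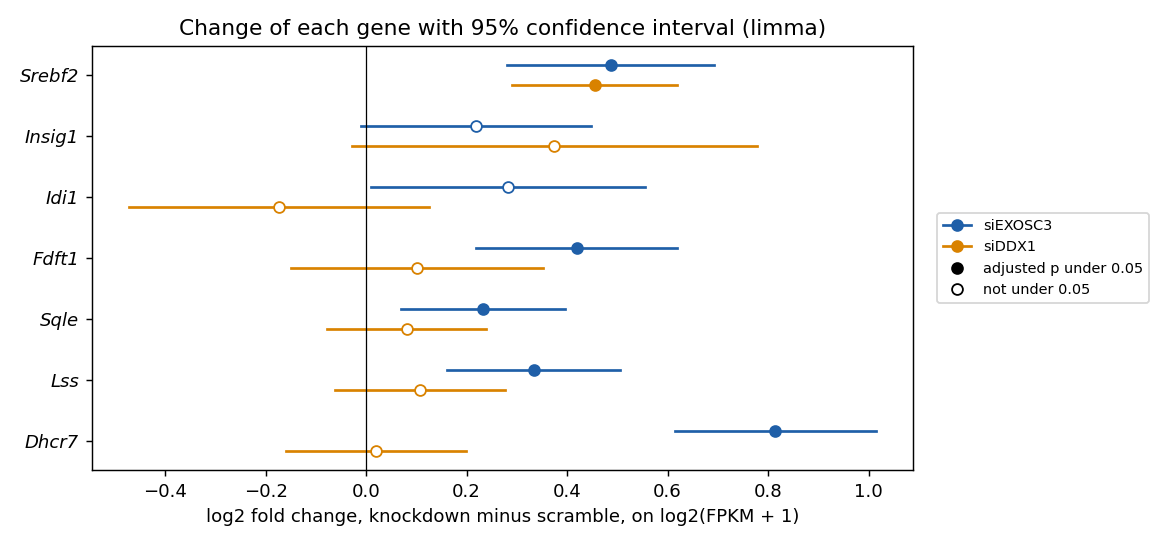
Log2 fold change of each measured gene (horizontal axis, knockdown minus scramble on log2(FPKM + 1)) with its 95% confidence interval from limma, for siEXOSC3 and siDDX1 cells. Filled points have an adjusted p under 0.05: Srebf2, Fdft1, Sqle, Lss and Dhcr7 in siEXOSC3 cells and Srebf2 in siDDX1 cells.

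In DDX1-depleted cells, 1 of the 7 measured genes increased (Srebf2) and 0 decreased. Of the 11104 genes tested in this table, 5.61% were called as increased and 5.03% as decreased. The median log2 fold change of the 7 genes was 0.10 (range -0.17 to 0.45), beside -0.00059 over all genes tested. Only Srebf2 had every siDDX1 library above every scramble library, which held for 17.0% of all tested genes, and none of the 7 lay wholly below, which held for 17.8%. Srebf2 was measured at 51.2, 45.7 and 45.9 FPKM in siDDX1 replicates 1, 2 and 3 and at 33.1, 33.3 and 36.9 FPKM in scramble. The mean was 138% ± 9.17 of scramble, with a log2 fold change of 0.45 (95% confidence interval 0.29 to 0.62, SE 0.0719, limma adjusted p = 0.0105). Without scramble replicate 1 the log2 fold change kept its direction and the adjusted p was 0.0658. The scramble values are those of the siEXOSC3 comparison apart from the scaling of the table, so both Srebf2 increases rest on the same controls.

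Insig1 differed among the siDDX1 libraries. It was at 68.5, 66.8 and 40.5 FPKM in replicates 1, 2 and 3 and at 43.8, 44.2 and 43.3 FPKM in scramble. Replicates 1 and 2 were higher than every scramble library and replicate 3 was lower than every one. The log2 fold change of 0.37 (95% confidence interval -0.03 to 0.78) was not called (limma adjusted p = 0.192). Without siDDX1 replicate 3 it was 0.62 with an adjusted p of 0.00024, so this 1 library decided the call.

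Fdft1 showed the same order of libraries, at 22.0, 20.3 and 15.8 FPKM against 17.8, 17.8 and 17.9 FPKM. Its log2 fold change was 0.10 (limma adjusted p = 0.573), and 0.23 with an adjusted p of 0.0238 without siDDX1 replicate 3. Idi1 went the other way, at 24.1, 27.1 and 33.7 FPKM against 33.9, 27.4 and 34.4 FPKM. Replicates 1 and 2 were below all scramble libraries and replicate 3 was among them. Its log2 fold change was -0.17 (limma adjusted p = 0.400), and -0.30 with an adjusted p of 0.0418 when siDDX1 replicate 3 was left out.

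The other enzymes were not called in siDDX1 cells. Lss was at 17.1, 15.8 and 14.6 FPKM against 14.3, 15.0 and 14.5 FPKM, with a log2 fold change of 0.11 (95% confidence interval -0.06 to 0.28, limma adjusted p = 0.360). Sqle was at 74.4, 72.3 and 71.1 FPKM against 70.7, 62.7 and 72.9 FPKM, with a log2 fold change of 0.08 (interval -0.08 to 0.24, adjusted p = 0.464). Dhcr7 was at 11.5 FPKM in each of the 3 siDDX1 libraries, within the scramble values of 10.9, 10.7 and 12.6 FPKM. Its log2 fold change was 0.02 with a 95% confidence interval from -0.16 to 0.20 (limma adjusted p = 0.895). In siEXOSC3 cells the interval of the Dhcr7 change began at 0.61. The difference between the knockdowns was not tested.

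**Figure D3:**
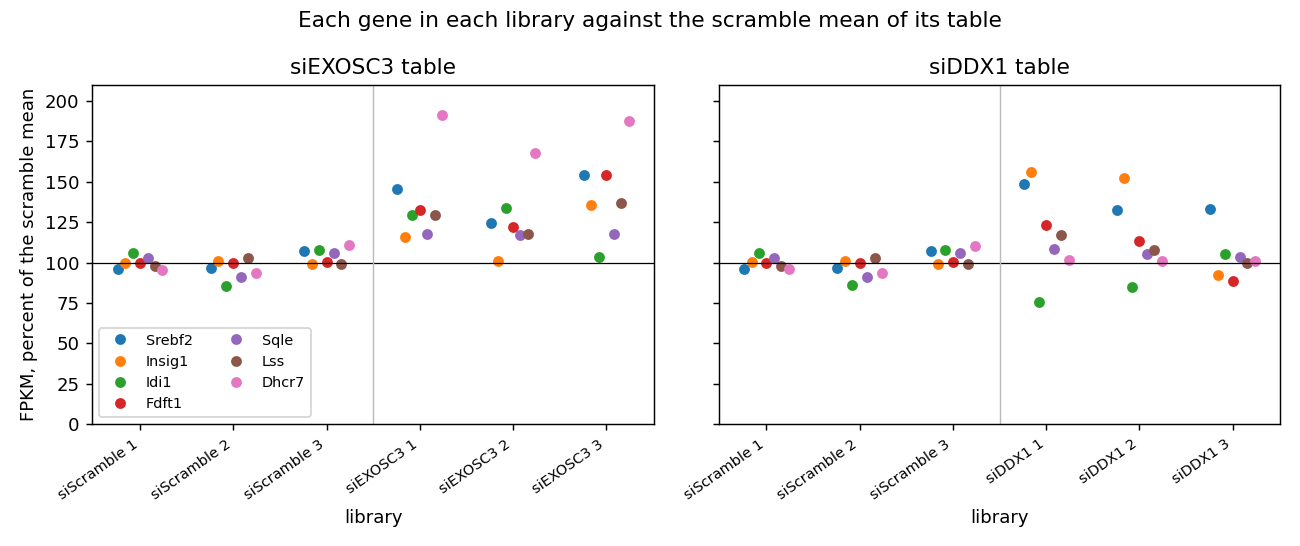
FPKM of the 7 measured genes in each library as a percent of the scramble mean of its table (vertical axis), for the siEXOSC3 table and the siDDX1 table. All points of the siEXOSC3 libraries are above 100%, whereas Insig1 was at 156%, 153% and 92.6% and Idi1 at 75.5%, 84.9% and 106% in siDDX1 replicates 1, 2 and 3.

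FPKM is scaled for transcript length, so levels can be ordered between genes, as far as the lengths used, which are not given, were right. In scramble cells of the siEXOSC3 table, Sqle was highest at 69.4 ± 5.50 FPKM (SD, n = 3), followed by Insig1 at 44.2 ± 0.346, Srebf2 at 34.8 ± 2.22, Idi1 at 32.2 ± 3.96, Fdft1 at 18.0 ± 0.0582, Lss at 14.7 ± 0.382 and Dhcr7 at 11.5 ± 1.08 FPKM. The ranges of Srebf2 and Idi1 overlapped, and all other neighbours in this order were separated. Fdft1 shares exonic bases with Ctsb on the other strand (52.1 FPKM on average), and the part of Ctsb reads in the rank of Fdft1 was not tested. These levels lay above those of 43.6% (Dhcr7) to 88.3% (Sqle) of the genes tested. After EXOSC3 depletion the mean of Dhcr7 (20.9 FPKM) lay above that of Lss (18.9 FPKM), the reverse of their order in scramble.

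Similarity between the genes was described over the 9 libraries. On log2(FPKM + 1), Fdft1 and Lss were the closest pair, with a Pearson correlation of 0.96, and Insig1 and Idi1 were the most opposed, at -0.56. Among the 11054 genes tested in both tables, those whose pattern was most like that of Insig1 were Man1c1 (r = 0.997), Sik1 (0.983) and Tmem229b (0.964). For Dhcr7, added after the values were seen, they were Alg2 (r = 0.986), the neuronal tubulin gene Tubb3 (0.985) and the synuclein gene Sncg (0.985). These correlations describe 9 libraries that share their controls and carry the differences between conditions. No such gene could be named for Hmgcs1, which was 0 throughout.

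The rest of the pathway was taken from a list of its other enzymes. Of 14 further enzymes, all tested, 3 increased and 1 decreased in siEXOSC3 cells, with a median log2 fold change of -0.042, beside 16.7% and 15.7% of all tested genes. The count of increased enzymes was 1 without siEXOSC3 replicate 1 or scramble replicate 1 or 2, and the count of decreased ones was 4 without siEXOSC3 replicate 2 and 0 without scramble replicate 1. The total of called genes also moved, from 3644 to 2042 without siEXOSC3 replicate 1 and to 4887 without siEXOSC3 replicate 2. Tm7sf2, a sterol C14 reductase, increased most. It was at 7.32, 6.81 and 7.40 FPKM in siEXOSC3 cells against 2.85, 2.99 and 3.41 FPKM in scramble, with a log2 fold change of 1.00 (SE 0.0886, limma adjusted p = 0.000522), and was called in every fit with 1 library left out. Pmvk and Mvd, 2 enzymes of the mevalonate steps, increased by 0.30 and 0.27 on the log2 scale (limma adjusted p = 0.0154 and 0.0489). Pmvk was not called without siEXOSC3 replicate 1 or scramble replicate 1 or 2 (adjusted p = 0.0624, 0.0733 and 0.0619). Mvd stayed called only without siEXOSC3 replicate 2 (0.00838), with 0.164, 0.065, 0.156, 0.0999 and 0.115 in the fits without siEXOSC3 replicate 1 or 3 or scramble replicate 1, 2 or 3.

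Sc5d, the desaturase that makes the substrate of Dhcr7, decreased in both comparisons. It was at 18.8, 19.2 and 17.1 FPKM in siEXOSC3 cells against 24.4, 22.3 and 24.3 FPKM, with a log2 fold change of -0.35 (limma adjusted p = 0.0101, and 0.0531 without scramble replicate 1). After DDX1 depletion Sc5d was at 17.1, 18.2 and 17.8 FPKM against 24.3, 22.1 and 24.0 FPKM, with a log2 fold change of -0.39 (limma adjusted p = 0.0126, with 0.0757 without scramble replicate 1 and 0.0663 without scramble replicate 3). In siEXOSC3 cells the transcripts of these consecutive enzymes differed from scramble in opposite directions.

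In siDDX1 cells 0 of the 14 further enzymes increased and 2 decreased (Sc5d and Acat2), with a median of -0.14, beside 5.61% and 5.03% of all tested genes. Acat2, which condenses acetyl-CoA at the start of the pathway, was at 16.5, 16.6 and 15.3 FPKM against 21.6, 18.8 and 22.2 FPKM (log2 fold change -0.35, limma adjusted p = 0.0307). Its call was lost without siDDX1 replicate 1 or 2 (0.0724 and 0.0835) and without scramble replicate 1 or 3 (0.137 and 0.126). Without siDDX1 replicate 3, 1 of the 14 increased and 4 decreased, in a fit that called 3524 genes in all instead of 1182.

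**Figure D4:**
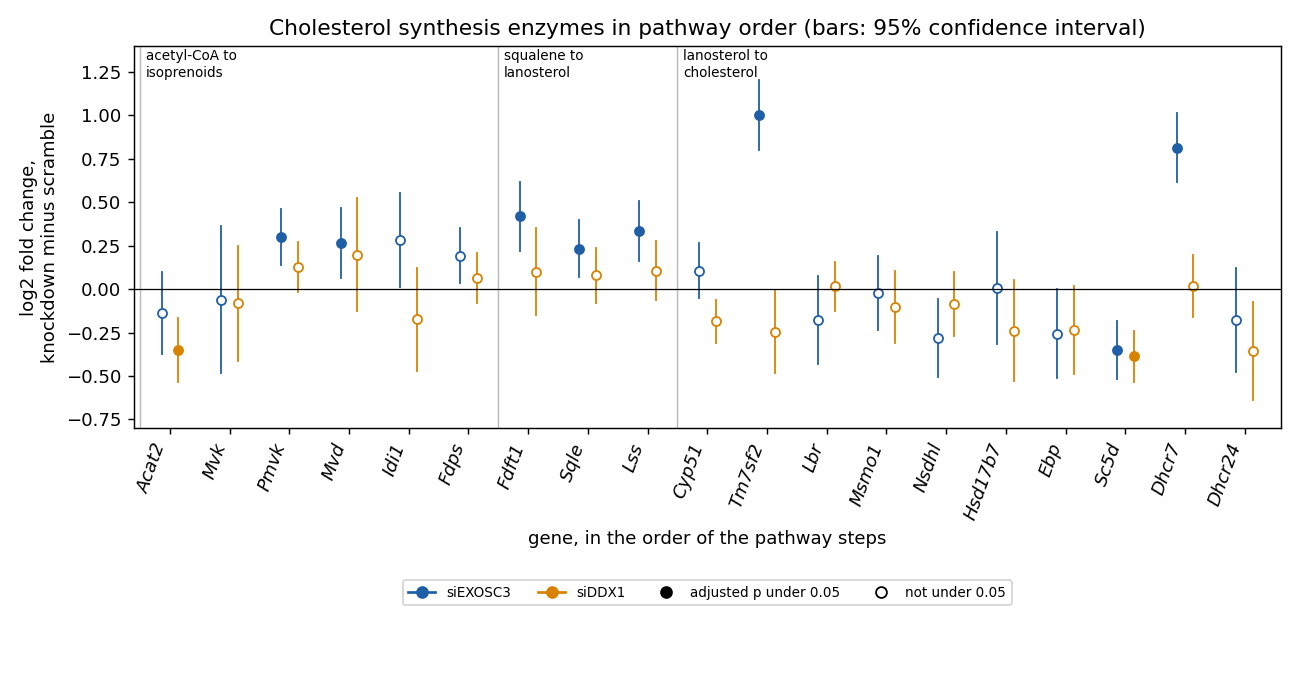
Log2 fold changes (vertical axis, knockdown minus scramble) of 19 measured enzymes in the order of the pathway, with 95% confidence intervals from limma, for siEXOSC3 and siDDX1 cells. Filled points have an adjusted p under 0.05: in siEXOSC3 cells the 3 steps from squalene synthesis to lanosterol were all called as increased, Tm7sf2 (1.00) and Dhcr7 (0.81) stand above the rest, and Sc5d is below 0 in both knockdowns.

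Genes that sense sterols and process SREBP proteins were examined next. Of 9 tested beside Srebf2 and Insig1, 2 increased and 2 decreased in siEXOSC3 cells, with a median of 0.086, and 2 increased and 0 decreased in siDDX1 cells, with a median of -0.0050. The shares over all tested genes were 16.7% up and 15.7% down with siEXOSC3, and 5.61% up and 5.03% down with siDDX1. Srebf1, which encodes the related factor that acts mainly on fatty acid synthesis, was at 47.8, 47.3 and 45.8 FPKM in siEXOSC3 cells against 29.3, 31.2 and 36.5 FPKM, and was called with a log2 fold change of 0.53 (limma adjusted p = 0.00398) and in all 6 fits with 1 library left out. In siDDX1 cells Srebf1 was at 46.4, 39.5 and 40.3 FPKM, above the scramble values of 29.1, 31.0 and 36.1 FPKM, with a log2 fold change of 0.38 (limma adjusted p = 0.0399). That call held in 1 of the 6 fits, the one without siDDX1 replicate 3 (adjusted p = 0.0111), and ranged up to 0.152 in the others. Spring1 (listed as 2410131K14Rik), a factor needed for SREBP activation, was at 5.36, 6.18 and 4.03 FPKM in siEXOSC3 cells against 7.99, 7.43 and 8.50 FPKM, and decreased with a log2 fold change of -0.55 (limma adjusted p = 0.0155, with 0.0583 without scramble replicate 1 and 0.0638 without scramble replicate 3). In the siDDX1 table Spring1 was at 6.74, 6.84 and 6.24 FPKM against 7.93, 7.37 and 8.40 FPKM and was not called (log2 fold change -0.23, limma adjusted p = 0.102).

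Insig2, the paralog of Insig1, was at 28.0, 21.5 and 32.8 FPKM against 20.3, 19.3 and 18.7 FPKM in the siEXOSC3 table (log2 fold change 0.46, limma adjusted p = 0.0311). It was called without siEXOSC3 replicate 2 or 3 alone, with adjusted p of 0.0768 to 0.103 in the other 4 fits. Mbtps1, the first of the proteases that cleave SREBP, decreased by 0.21 in siEXOSC3 cells (limma adjusted p = 0.0333) and Mbtps2, the other, increased by 0.29 in siDDX1 cells (0.0437). Each of these last calls held in 1 of 6 fits with 1 library left out, without siEXOSC3 replicate 3 for Mbtps1 and without siDDX1 replicate 3 for Mbtps2, and reached adjusted p of 0.110 and 0.144 in the others.

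Genes of cholesterol uptake and lysosomal export were taken from a separate list. Of the 8 tested (10 listed), 2 increased and 1 decreased in siEXOSC3 cells, with a median log2 fold change of 0.092, and 0 increased and 1 decreased in siDDX1 cells, with a median of -0.0048. All tested genes gave 16.7% up and 15.7% down in the first comparison and 5.61% and 5.03% in the second. Without siEXOSC3 replicate 3 there were 2 decreases in place of 1.

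The uptake genes called in siEXOSC3 cells act in different ways. Mylip, a ubiquitin ligase that degrades lipoprotein receptors, was at 10.1, 10.2 and 9.81 FPKM against 6.43, 7.20 and 6.68 FPKM (log2 fold change 0.51, limma adjusted p = 0.00291). Npc2, which carries cholesterol out of lysosomes, was at 26.5, 22.0 and 26.6 FPKM against 34.8, 34.2 and 33.4 FPKM (log2 fold change -0.44, limma adjusted p = 0.00725). Both were called in every fit with 1 library left out. Scarb1, a receptor for HDL, increased by 0.29 (limma adjusted p = 0.0211) but not without siEXOSC3 replicate 1 (0.0596) or scramble replicate 1, 2 or 3 (0.0849, 0.0661 and 0.0594). Lrp8, a lipoprotein receptor of neurons, decreased by 0.42 in siDDX1 cells (limma adjusted p = 0.0281), a call that held in 1 of 6 fits, without siDDX1 replicate 3 (0.00876), and reached 0.110 in the others.

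Fatty acid synthesis genes, which share SREBP regulation, were examined beside them. Of 10 tested, 3 increased and 0 decreased in siEXOSC3 cells (median 0.15), and 0 were called in either direction in siDDX1 cells (median 0.011). For all tested genes these shares were 16.7% and 15.7% with siEXOSC3 and 5.61% and 5.03% with siDDX1. Without siDDX1 replicate 3, 1 of the 10 was called up and 1 down, in a fit that called 3524 genes in all instead of 1182. Acly, which makes cytosolic acetyl-CoA from citrate, was at 286, 282 and 314 FPKM in siEXOSC3 cells against 214, 215 and 217 FPKM (log2 fold change 0.45, limma adjusted p = 0.00316). Acss2, which makes acetyl-CoA from acetate, was at 17.6, 15.7 and 18.8 FPKM against 11.7, 10.9 and 11.5 FPKM (log2 fold change 0.57, limma adjusted p = 0.00272). Acly and Acss2 were called in every fit with 1 library left out. Me1, an NADPH-producing malic enzyme, increased by 0.31 (limma adjusted p = 0.0145), with 0.0589 without scramble replicate 2 and 0.0553 without scramble replicate 3.

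Genes of branches that lead away from cholesterol were taken from 2 further lists. Of 4 tested genes of efflux, storage and oxysterols (9 listed), 0 were called in either knockdown, with medians of -0.087 and 0.017 in siEXOSC3 and siDDX1 cells. The shares over all tested genes were 16.7% up and 15.7% down with siEXOSC3, and 5.61% and 5.03% with siDDX1. In siEXOSC3 cells 1 was called down without siEXOSC3 replicate 2 (4887 genes called in all). Without the filter on low FPKM 1 was called up (3132 genes called in all). In siDDX1 cells 2 were called up without siDDX1 replicate 3 (3524 genes called in all). Of 9 genes that use isoprenoids for other products, 0 increased and 1 decreased (Pggt1b) in siEXOSC3 cells, with a median of -0.17, where all tested genes gave 16.7% and 15.7%. Without siEXOSC3 replicate 2, where 4887 genes were called in all instead of 3644, 1 of the 9 increased and 3 decreased. Pggt1b, a subunit of a protein prenyltransferase, decreased by 0.23 (limma adjusted p = 0.0390), which held in 1 of 6 fits, without siEXOSC3 replicate 2 (0.0275), and reached 0.120 in the others. In siDDX1 cells Coq2, a prenyltransferase of ubiquinone synthesis, increased by 0.42 (limma adjusted p = 0.0120), with 0.0692 without scramble replicate 1 and 0.0516 without scramble replicate 3, and the median of the 9 was -0.019. Coq2 was the 1 gene of the 9 called up and 0 were called down, where all tested genes gave 5.61% and 5.03%. Without siDDX1 replicate 3, 4 were called up and 1 down, in a fit that called 3524 genes in all instead of 1182.

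The libraries were nondirectional, so reads of genes that overlap on opposite strands are not separated. Positions are from GENCODE vM1 on NCBIM37. Fdft1 (chr14:63763990-63796630, minus strand) shares exonic bases with Ctsb on the other strand, which was at 52.1 FPKM on average. Lss (chr10:75994333-76019883, plus strand) shares exonic bases with the antisense lincRNA gene 4930483K19Rik, at 0.287 FPKM. Their part in the Fdft1 and Lss values was not tested. Dhcr7 (chr7:151009050-151034315), Insig1 (chr5:28397952-28405201), Idi1 (chr13:8884852-8891641), Sqle (chr15:59146632-59162747) and Srebf2 (chr15:81977696-82035806), all on the plus strand, shared exonic bases with no other annotated gene.

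Srebf2 also hosts Mir33 (chr15:82028552-82028620, same strand, outside the exons). The microRNA it yields, miR-33, is known to repress the cholesterol exporter ABCA1. Mir33 was listed at 0 in the tables, so the Srebf2 increases cannot be carried over to it. Its mature RefSeq sequence is given with the seed (bases 2 to 8) in capitals, as the product that shares this transcript:
mmu-miR-33-5p: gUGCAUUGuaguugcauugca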

How the data were processed

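RNA was depleted of rRNA with a Ribo-zero kit and sequenced from nondirectional libraries. Reads were aligned by the authors to mm9 using TopHat2 version 2.1.0, followed by Cuffdiff version 2.2.1 (per the submitters' processing notes). The authors deposited FPKM per gene and library in 2 tables. The gene annotation given to Cuffdiff is not given in the sources used here. Count models were not applied to FPKM, and precision is set by 3 libraries per condition. Log2(FPKM + 1) was tested with limma version 3.58.1 (lmFit, eBayes with an intensity trend, no covariates) in R version 4.3.3, over genes whose 6 libraries in a table averaged at least 1 FPKM. Two-sided p-values were corrected by the Benjamini-Hochberg method over all tested genes, with a threshold of 0.05. The fit was tested on simulated data. Promoters, motifs and microRNAs came from RefSeq tables (GRCm38.p6), with no coordinates converted. Figures were drawn with matplotlib version 3.10.9.

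All 8 genes were named with their values. From each other list, genes past the threshold were named, at most 3 per direction and table. Some genes of these pathways are not reported here and were left out of the lists, whatever their values. The genes and lists were chosen with earlier results of these data known. Alternatives were another pseudocount, filters, scalings, no trend, a replicate block, a stricter threshold and leaving out each library.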

Additional observations from a re-analysis of the deposited data

Results flagged for a closer look

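Tm7sf2 and Acly had all 3 libraries of siEXOSC3 cells on one side of scramble and all 3 of siDDX1 cells on the other. Tm7sf2 had a log2 fold change of 1.00 in siEXOSC3 cells and -0.25 after DDX1 depletion, where it was not called (limma adjusted p = 0.148). The log2 fold change of Acly was 0.45 in siEXOSC3 cells, and in siDDX1 cells it was -0.030 (limma adjusted p = 0.758). The difference between the knockdowns was not tested for either gene, and the comparisons share their scramble libraries.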

How the results depend on the processing

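Under an adjusted p under 0.01, 3 of the cholesterol genes increased in siEXOSC3 cells instead of 5 and 0 instead of 1 in siDDX1 cells, and the genes called in all fell from 3644 to 1349 and from 1182 to 183. Without a filter on low FPKM 717 genes were called in siDDX1 cells. Leaving out 1 library gave 3 to 6 increased cholesterol genes and 1610 to 4887 called genes in siEXOSC3 cells, and 0 to 3 increased, 0 to 1 decreased and 158 to 3524 called in siDDX1 cells. The extremes in siDDX1 cells were without scramble replicate 1 and without siDDX1 replicate 3. The cause was not tested. Dhcr7 in siDDX1 cells moved from 0.02 to between -0.022 (without scramble replicate 2) and 0.087 (without scramble replicate 3), and was -0.0079 when scramble replicate 1 was left out. Of 182 recomputed fold changes of the 7 genes, 165 kept their sign and their side of the threshold, 10 lost the call, 5 gained it and 2, of Dhcr7 in siDDX1 cells and not called, changed sign. Sqle in siEXOSC3 cells also lost it without the filter (limma adjusted p = 0.0508) and without the trend (0.0560). Of 299 fold changes of the other called genes, 72 lost the call and 0 changed sign.

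The replicate numbers are shared by the groups. In the siEXOSC3 table the deviations of same-numbered libraries correlated at 0.035, -0.31 and -0.13. In the siDDX1 table they correlated at -0.012, 0.38 and 0.37. There, siDDX1 replicate 2 with scramble replicate 3 gave -0.38, and siDDX1 replicate 3 with scramble replicate 2 gave -0.37. The main fits used no pairing, and whether the numbers mark paired samples was not tested. With a replicate block, 1893 genes were called in siDDX1 cells instead of 1182 and 2449 in siEXOSC3 cells instead of 3644. Of the cholesterol genes, Srebf2 alone was called in siDDX1 cells with the block, as without it. In siEXOSC3 cells Sqle, Pmvk, Mvd, Mbtps1 and Pggt1b were then not called (limma adjusted p = 0.0758, 0.0523, 0.0979, 0.0843 and 0.101), which left 1 of the further enzymes increased instead of 3.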
